A study of Mus musculus with 6 samples.

Results

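To describe how the TNF superfamily was expressed in macrophages with and without Tim-4, 10 genes were taken by symbol from the gene table of the RNA sequencing. They were 5 ligands (*Tnf*, *Tnfsf9*, *Tnfsf10*, *Tnfsf13b* and *Tnfsf11*) and 5 receptors (*Tnfrsf1a*, *Tnfrsf1b*, *Tnfrsf11a*, *Cd40* and *Fas*), and all 10 were among the 15415 genes listed. The cells were starch-elicited peritoneal macrophages (PEMs), collected 3 days after starch was injected into male C57BL/6J mice between 6 and 8 weeks of age. Of the libraries, 3 (knockout libraries 1 to 3) were of mice that carried both LysM-Cre and the *Tim-4* fl/fl allele, and 3 (control libraries 1 to 3) were of *Tim-4* fl/fl mice without Cre. LysM-Cre is driven by the lysozyme locus *Lyz2* and is active in myeloid cells and not in macrophages alone, and an effect of Cre itself cannot be told apart from that of the deletion. Both groups carry the floxed allele. LPS is the labelled treatment of every library, so no unstimulated level was measured, and activated PEMs were incubated with LPS at 1 μg/ml for 3.5 hours. Whether this held for the sequenced cells is not stated. Neither the labels nor the methods say whether each library came from a separate mouse, so the p-values below measure the spread between these libraries.

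Titles and genotype entries of the labels contradict each other on which libraries are the knockouts, and the titles were followed. *Timd4*, the gene of Tim-4, lay between 0.246 and 0.394 FPKM in the knockout libraries and between 1.19 and 19.5 FPKM in the controls, with control library 3 at the low end. *Lyz2* measured at least 7090.2 FPKM in each control library, and 41.4, 4656 and 106 FPKM in the knockouts. Knockout library 2 thus stood far above the others of its group, and the cause was not tested. FPKM correct the reads of a gene for its length and for library depth, and values of a group are given in the order of its libraries 1 to 3. Each library held between 36170767 and 42217558 counted reads. The 7 macrophage markers, of which *Cd68* was the highest, summed to between 2194 and 2876 FPKM across the 6 libraries, but did not move together. *Fcgr1* was higher in the knockouts (log2 fold change 2.82, limma adjusted p = 0.00150), and the other 6 did not pass, although *Cd68* lay above and *Csf1r* and *Cd14* lay below the controls in every knockout library. Sums of the markers of other cells were lower in every knockout library than in every control library for B cells (2.78 to 5.52 against 27.5 to 115.4 FPKM), mast cells (1.89 to 2.27 against 38.2 to 49.3 FPKM), neutrophils (41.2 to 72.6 against 159 to 172 FPKM), dendritic cells (2.66 to 6.44 against 7.73 to 11.3 FPKM) and large peritoneal macrophages (3.38 to 6.10 against 33.1 to 137.6 FPKM). All 5 B cell markers and 5 mast cell markers that were tested fell. The neutrophil sum was mostly *S100a8*, which fell with *Camp*, while *S100a9*, *Cxcr2* and *Ngp* overlapped between the groups. The dendritic cell sum was mostly *Ccr7*, which did not pass (limma adjusted p = 0.0553). The sum of large peritoneal macrophages was mostly *Prg4*, which fell with *Icam2*, while *Gata6* overlapped and *Timd4*, the deleted gene, did not pass (limma adjusted p = 0.0715). Its adjusted p was 0.0436 when the replicate number was a block and 0.0458 at a pseudocount of 0.1.

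TNF superfamily ligands are mostly trimeric membrane proteins, some of which are cut from the cell surface, and each binds one or a few receptors of the family. Receptors with a death domain, such as those encoded by *Tnfrsf1a* and *Fas*, can recruit adaptors that lead to caspase activation. *Cd40*, *Tnfrsf1b* and *Tnfrsf11a* encode receptors that bind TRAF adaptors and signal to NF-κB, a route that is not theirs alone. Macrophages stimulated with LPS are a major source of TNF, and they display CD40, through which T cells activate them.

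Group differences on the log2(FPKM + 1) scale were tested by limma in 9030 genes whose mean reached 1 FPKM in at least one group, with Benjamini-Hochberg adjustment over all of them and a threshold of 0.05. Of the 10 genes, 8 passed this filter, and *Tnfsf13b* and *Tnfsf11* did not. *Tnfsf9* and *Cd40* rose and *Fas* fell in the knockout libraries, while *Tnf*, *Tnfsf10*, *Tnfrsf1a*, *Tnfrsf1b* and *Tnfrsf11a* did not pass. The count of 3 of 8 stands beside 7.31% of all tested genes past the same threshold (2.57% higher and 4.74% lower). The median log2 fold change of the 8 genes was 0.32, beside -0.11 over all tested genes. Rescaling the libraries by the median of ratios moved the median of all genes to 0.01 and that of the 8 genes to 0.47, so the differences below are also given on that scale where it changes a statement.

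The genes spanned a wide range of levels. By mean FPKM over the 6 libraries, *Tnf* took place 10 among all listed genes and *Tnfrsf1b* place 64, whereas *Tnfsf13b* and *Tnfsf11* took places 11336 and 12144. In the knockout libraries the order from high to low was *Tnf*, *Tnfrsf1b*, *Cd40*, *Tnfrsf1a*, *Tnfsf9*, *Fas*, *Tnfsf10*, *Tnfrsf11a*, *Tnfsf13b* and *Tnfsf11*, and the ranges of neighbours did not overlap. In the control libraries *Fas* stood above *Tnfsf9*, and the ranges overlapped between *Cd40* and *Tnfrsf1a*, between *Tnfsf10* and *Tnfrsf11a*, and between *Tnfsf13b* and *Tnfsf11*. The ratio of *Tnfsf9* to *Fas*, both in FPKM, was 3.13, 3.36 and 2.88 in knockout libraries 1 to 3 and 0.888, 0.580 and 0.666 in control libraries 1 to 3. A ratio within a library does not depend on how the library was scaled. Both genes already differed between the groups in opposite directions, so the separation of their ratio is no further evidence.

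**Figure D1:**
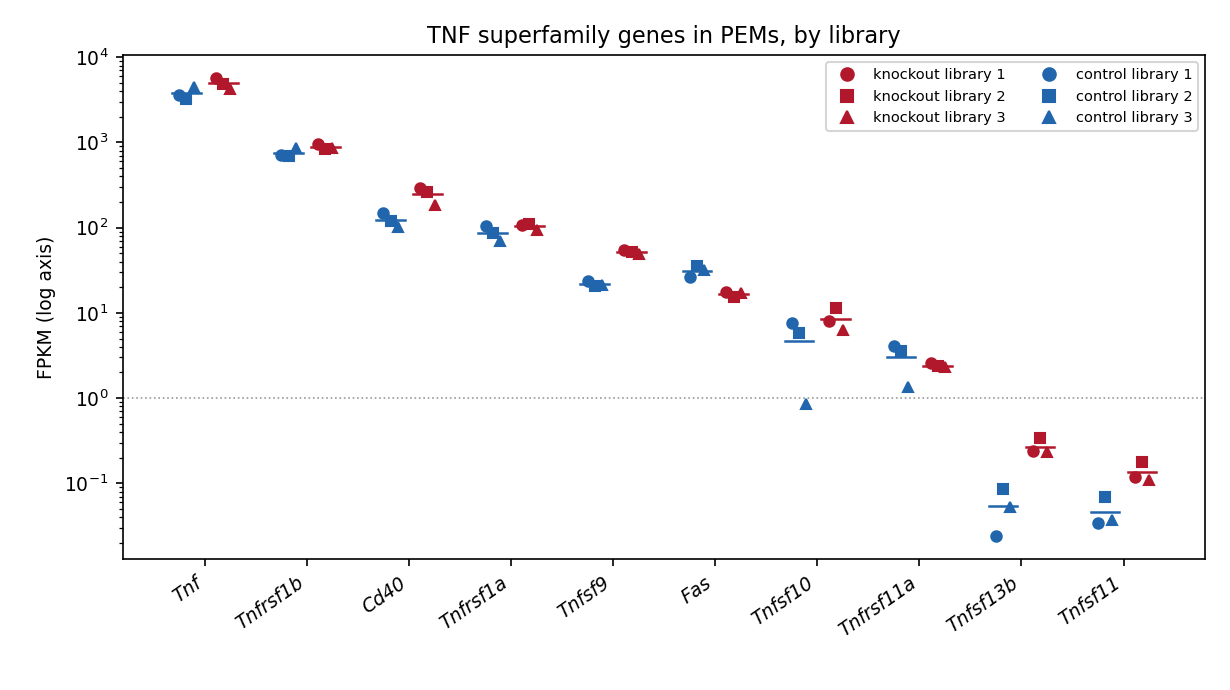
FPKM of the 10 genes (log axis) in each library, controls in blue on the left and knockouts in red on the right of each gene, with the group mean as a bar and a dotted line at 1 FPKM. *Tnf* lies at 3220.4 FPKM or above in every library, *Tnfsf9* and *Cd40* are higher and *Fas* is lower in all 3 knockout libraries, and *Tnfsf10* is lowest in control library 3 at 0.844 FPKM.

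Upstream sequences are shown for *Tnf*, the most abundant of the genes, and for *Fas*, *Tnfrsf1a* and *Tnfrsf1b*, the 3 whose promoters hold a GAS match. They are the 250 bases before the RefSeq transcription start in the build GRCm38.p6, which is not the mm9 build that the submitters' processing notes name, so no position of the deposited data is implied. Capitals mark matches, on either strand, to a GAS element (TTCNNNGAA, a STAT site), an AP-1 site or a TATA box (TATAAA). The κB consensus and the CRE were searched too. The regions are, in the order shown, chr17:35202008-35202257 (minus strand), chr19:34290409-34290658 (plus strand), chr6:125349473-125349722 (plus strand) and chr4:145246871-145247120 (minus strand), each directly upstream of the first exon.
Tnf: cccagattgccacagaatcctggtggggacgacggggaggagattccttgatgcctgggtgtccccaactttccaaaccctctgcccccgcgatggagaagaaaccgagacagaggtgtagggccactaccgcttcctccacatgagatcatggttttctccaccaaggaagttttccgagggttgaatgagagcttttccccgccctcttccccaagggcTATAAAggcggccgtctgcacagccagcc
Fas: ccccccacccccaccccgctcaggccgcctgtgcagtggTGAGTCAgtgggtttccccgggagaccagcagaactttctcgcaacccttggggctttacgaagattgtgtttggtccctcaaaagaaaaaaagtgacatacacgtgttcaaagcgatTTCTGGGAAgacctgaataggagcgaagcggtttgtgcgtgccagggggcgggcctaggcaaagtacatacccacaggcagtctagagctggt
Tnfrsf1a: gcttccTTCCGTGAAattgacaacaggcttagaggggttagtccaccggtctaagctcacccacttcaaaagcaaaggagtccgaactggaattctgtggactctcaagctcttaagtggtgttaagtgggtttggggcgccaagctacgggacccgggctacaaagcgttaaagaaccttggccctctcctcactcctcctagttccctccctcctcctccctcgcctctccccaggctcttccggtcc
Tnfrsf1b: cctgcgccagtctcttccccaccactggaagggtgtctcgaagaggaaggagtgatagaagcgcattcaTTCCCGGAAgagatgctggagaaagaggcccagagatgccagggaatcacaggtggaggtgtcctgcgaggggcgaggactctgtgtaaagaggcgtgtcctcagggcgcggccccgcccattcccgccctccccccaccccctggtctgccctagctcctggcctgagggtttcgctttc

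Promoters of 8 of the 10 genes were found in the RefSeq table, *Cd40* and *Tnfsf9* being the ones without an entry. Over the 300 bases from 250 before to 50 after the start, a GAS match was present in 3 of the 8 genes, an AP-1 match (TGANTCA) in 2 (*Fas* and *Tnfsf13b*) and a TATA box in 2 (*Tnf* and *Tnfsf11*). The κB consensus and the CRE (TGACGTCA) matched in 0 of 8. Of all 32851 promoters of this length, 8.30% held a GAS match, 7.81% an AP-1 match, 13.6% a TATA box, 4.51% a κB match and 1.79% a CRE. The GAS match began 93 bases before the start in *Fas*, 244 in *Tnfrsf1a* and 181 in *Tnfrsf1b*, and these genes did not move together, since *Fas* fell and the others did not pass the threshold. A match is a run of letters and not a measured binding site. Nor does a missing match show that a gene lacks such a site, since only these 300 bases and fixed letter patterns were searched.

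Among the ligands, *Tnfsf9* (Entrez 21950) rose and had the smallest adjusted p of the 8 tested genes. It encodes 4-1BB ligand, which costimulates T cells through the receptor of *Tnfrsf9*. It was at 55.0, 52.1 and 48.8 FPKM in the knockouts, compared with 23.5, 20.8 and 21.1 FPKM in the controls. The lowest knockout library was above the highest control library, and the spread within each group was small beside the gap between them. The knockout mean was 52.0 ± 3.13 FPKM and the control mean 21.8 ± 1.51 FPKM (SD, n = 3 each), a 2.38-fold difference with a log2 fold change of 1.22 ± 0.12 (SE, limma adjusted p = 0.00651). Over the 12 alternatives the log2 fold change stayed between 1.18 and 1.4, and the adjusted p missed the threshold without knockout library 1 (0.0521 from limma) and without control library 2 (0.0570). In libraries of bulk cells, fewer cells of a type and less RNA per cell cannot be told apart. A non-coding gene, *Gm11110*, overlaps *Tnfsf9* by 618 bases on the opposite strand in GENCODE vM21, and the strand setting of the counting is not given in the sources used here.

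*Tnf* (Entrez 21926), the founding ligand of the family, took between 0.532% and 0.941% of all counted reads. It was at 5695, 4872 and 4204 FPKM in the knockouts, compared with 3615, 3220.4 and 4491 FPKM in the controls. Control library 3 exceeded knockout library 3, so the groups overlapped. The means of 4924 ± 747 and 3775 ± 650.4 FPKM (SD, n = 3 each) gave a log2 fold change of 0.39, whose 95% confidence interval ran from -0.04 to 0.81 (limma adjusted p = 0.212). On the rescaled values the groups no longer overlapped, and the log2 fold change was 0.53, again short of the threshold (limma adjusted p = 0.145). None of the 12 alternatives brought it past the threshold, the lowest adjusted p being 0.0950 without control library 3.

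*Tnfsf10* (Entrez 22035) encodes TRAIL, a ligand that can trigger apoptosis through death receptors. It was at 8.0, 11.3 and 6.23 FPKM in the knockouts, compared with 7.59, 5.79 and 0.844 FPKM in the controls. Control library 3 stood far below the other 5 libraries, and control library 1 lay within the knockout range. The log2 fold change of 0.97 (standard error 0.55) did not pass (limma adjusted p = 0.293) and rested on control library 3, without which it was 0.28 (adjusted p = 0.453). The reads behind the value were 151 in control library 3 and at least 1114 in each of the others.

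*Tnfsf13b*, the gene of the B cell survival factor BAFF (Entrez 24099), and *Tnfsf11*, the gene of the osteoclast factor RANKL (Entrez 21943), were close to the limit of detection. *Tnfsf13b* had 21, 30 and 20 reads in the knockout libraries and 2, 7 and 4 in the controls, that is, 0.238, 0.338 and 0.232 against 0.0241, 0.0855 and 0.0526 FPKM. *Tnfsf11* had 11, 17 and 10 reads against 3, 6 and 3, that is, 0.117, 0.18 and 0.109 against 0.0340, 0.0689 and 0.0371 FPKM. The groups did not overlap in either gene, but how common such a separation is among genes below the filter was not measured. Per counted read the ratio of the group sums was 5.0 for *Tnfsf13b* (exact 95% interval 2.74 to 9.85) and 2.90 for *Tnfsf11* (1.48 to 6.09), where the intervals cover counting error only. In a fit without the filter on low values, *Tnfsf13b* passed with a log2 fold change of 0.27 (limma adjusted p = 0.0372), beside 0.915% of all listed genes past the threshold and higher in that fit, and *Tnfsf11* did not, at 0.12 (adjusted p = 0.0972). On the log2(FPKM + 1) scale such low genes cannot show a large change. *Gm44789* overlaps *Tnfsf13b* by 3101 bases on the opposite strand. Markers of mesothelial cells and fibroblasts summed to 11.3, 30.1 and 13.5 FPKM in knockout libraries 1 to 3 and to 2.11, 5.75 and 12.0 FPKM in the controls. Knockout library 2 was the highest for both genes and for this marker list, and the part of these cells in the values was not tested.

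**Figure D2:**
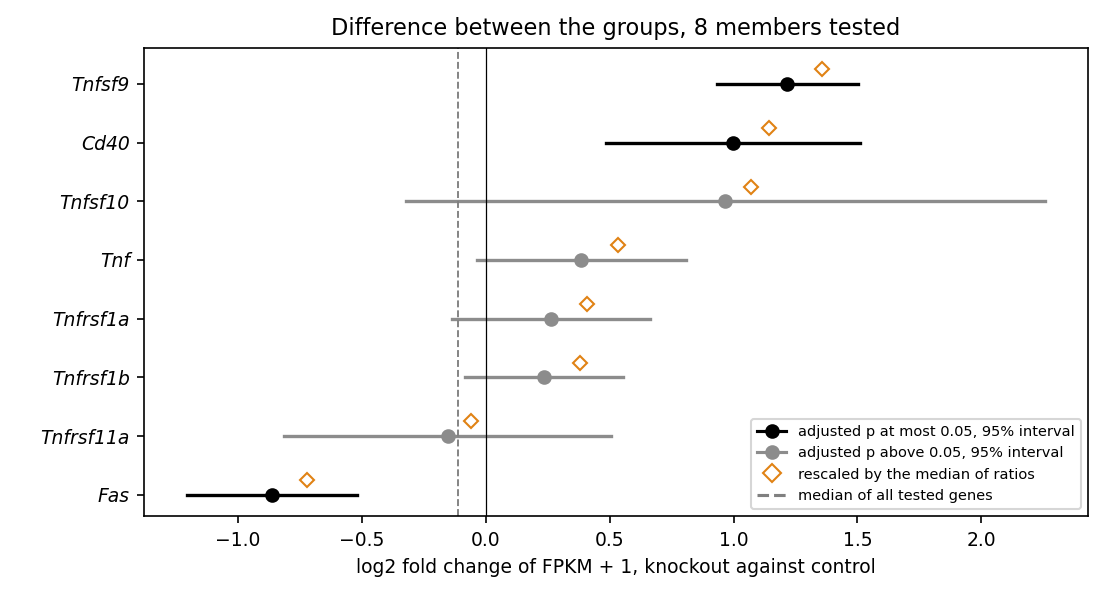
Log2 fold change of FPKM + 1 (knockout against control) of the 8 genes tested, with 95% confidence intervals from limma, black where the adjusted p is at most 0.05, with diamonds for the values rescaled by the median of ratios. A dashed line marks the median of all tested genes at -0.11, and the intervals of *Tnfsf9*, *Cd40* and *Fas* do not reach 0.

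Among the receptors, *Cd40* (Entrez 21939) rose. It encodes the costimulatory receptor through which CD40 ligand on T cells activates macrophages and B cells. It was at 295, 262 and 185 FPKM in the knockouts, compared with 147, 119 and 101 FPKM in the controls. All knockout libraries were above all control libraries, and knockout library 3 was the lowest of its group. The knockout mean was 248 ± 56.7 FPKM and the control mean 122.6 ± 23.2 FPKM (SD, n = 3 each), a 2.02-fold difference with a log2 fold change of 1.0 ± 0.22 (SE, limma adjusted p = 0.0396). The size of the change lay, over the 12 alternatives, between 0.86 and 1.19, and the call was lost under 6 of them. The adjusted p was 0.0554 after rescaling, 0.0581 with voom on recovered reads and 0.0694 without a filter. It also missed the threshold when control library 2 (0.151) or either of knockout libraries 1 (0.152) and 2 (0.170) was dropped. B cells also express *Cd40*, and their 5 listed markers were lower in the knockout libraries. The part of B cells in the level of *Cd40* was not tested.

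*Fas* (Entrez 14102) encodes the death receptor of Fas ligand, and it was the one of the 8 tested genes that fell. It was at 17.6, 15.5 and 17.0 FPKM in the knockouts, compared with 26.5, 35.8 and 31.7 FPKM in the controls. The highest knockout library was below the lowest control library. The control mean of 31.4 ± 4.66 FPKM was 1.88 times the knockout mean of 16.7 ± 1.06 FPKM (SD, n = 3 each), and the log2 fold change was -0.86 ± 0.15 (SE, limma adjusted p = 0.0205). It stayed past the threshold after rescaling (-0.72, limma adjusted p = 0.0296). Dropping control library 2 raised the adjusted p to 0.0960, and dropping knockout library 1 or 2 raised it to 0.0928 or 0.114. The log2 fold change was -0.76, -0.90 and -0.81 in these fits and lay between -0.97 and -0.72 over the 12 alternatives. The marker sums of B cells, mast cells, neutrophils, dendritic cells and large peritoneal macrophages were lower in every knockout library as well, and their part in the fall of *Fas* was not tested. *Fasl*, the gene of its ligand, was not among the listed genes, which have a mean of at least 1.11 normalized reads. On the same strand *Gm27818* overlaps *Fas* by 159 bases in GENCODE vM21.

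The receptors of TNF itself did not pass the threshold. *Tnfrsf1b* (Entrez 21938), the gene of TNFR2, was at 952, 845 and 853 FPKM in the knockouts, compared with 706, 700.5 and 852 FPKM in the controls. *Tnfrsf1a* (Entrez 21937), the gene of the death domain receptor TNFR1, was at 106, 109.5 and 93.9 FPKM against 104, 85.8 and 70.3 FPKM. In each gene a single control library reached into the knockout range, control library 3 for *Tnfrsf1b* and control library 1 for *Tnfrsf1a*. The log2 fold changes were 0.23 for *Tnfrsf1b* (95% confidence interval -0.08 to 0.55, limma adjusted p = 0.301) and 0.26 for *Tnfrsf1a* (-0.14 to 0.66, adjusted p = 0.348). That of *Tnfrsf1a* was 0.12 without control library 3, 0.40 without control library 1 and 0.41 after rescaling. After rescaling, all knockout libraries were above all controls for *Tnfrsf1b* (log2 fold change 0.38, limma adjusted p = 0.149), while the groups still overlapped for *Tnfrsf1a*.

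TNFR2 transcripts were more abundant per length than TNFR1 transcripts in every library. The ratio of *Tnfrsf1b* to *Tnfrsf1a* FPKM was 8.94, 7.71 and 9.09 in knockout libraries 1 to 3 and 6.76, 8.16 and 12.1 in control libraries 1 to 3. The knockout libraries lay inside the range of the controls. The mean log2 ratio differed by -0.03 between knockout and control, less than the spread of the controls (SD 0.43, n = 3), with a two-sided exact permutation p of 0.9, where 0.1 is the smallest that 3 against 3 libraries allow. *Tnf* stood at 5.38, 5.10 and 4.44 times the summed FPKM of both receptors in the knockout libraries and at 4.46, 4.10 and 4.87 times in the controls.

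*Tnfrsf11a* (Entrez 21934) encodes RANK, the receptor of RANKL and the receptor by which osteoclast precursors respond to it. It was at 2.57, 2.37 and 2.29 FPKM in the knockouts, compared with 4.05, 3.61 and 1.36 FPKM in the controls. Control libraries 1 and 2 were above the knockout libraries and control library 3 was below them. The log2 fold change was -0.15 (limma adjusted p = 0.748). Without control library 3 it was -0.50 and passed (limma adjusted p = 0.0422), and without control library 1 its sign turned (0.05, adjusted p = 0.913). Control library 3 was thus the lowest of the controls for *Tnfsf10*, for *Tnfrsf11a* and for *Timd4*, and the calls of *Tnfsf9*, *Cd40* and *Fas* held without it (limma adjusted p = 0.00286, 0.0442 and 0.0177).

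Over the 8 tested genes, all knockout libraries lay above all controls in 2 genes and below them in 1. Over all tested genes these shares were 11.1% and 23.0%. After rescaling, *Tnf* and *Tnfrsf1b* joined the genes above all controls, which made 4 above and 1 below, beside 17.2% and 15.6% of all tested genes.

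The rest of the superfamily held 13 other ligands and 24 other receptors. Of these 37 genes, 30 were listed and 15 passed the filter, of which 1 rose, 3 fell and 11 did not pass the threshold, beside 2.57% higher and 4.74% lower among all tested genes. The 3 that fell, *Ltb*, *Tnfrsf13c* and *Tnfrsf4*, reached the filter only through the controls, where they were higher, so the filtered count supports nothing about the list. In the limma fit without a filter 3 of the 30 listed genes fell and 0 rose, beside 1.98% and 0.915% of all listed genes. The 15 tested genes had a median log2 fold change of -0.13, and -0.01 after rescaling. *Ltb*, the gene of lymphotoxin β (Entrez 16994), was at 0.760, 1.02 and 1.07 FPKM in the knockouts, compared with 6.96, 5.21 and 3.28 FPKM in the controls (log2 fold change -1.62, limma adjusted p = 0.0130). On the same strand *Mir6973a* overlaps *Ltb* by 78 bases. *Tnfrsf13c*, the gene of the BAFF receptor (Entrez 72049), was at 0.317, 0.146 and 0.313 against 6.44, 5.38 and 2.29 FPKM (log2 fold change -2.10, limma adjusted p = 0.0127), and the control mean was 18.2 times the knockout mean. For such low genes the size depends on the scale, and *Tnfrsf13c* was at -3.66 with a pseudocount of 0.1 and at -3.95 with voom. Both genes are expressed by lymphocytes, and in both, control library 3 was the lowest of the controls, as it was for the summed B cell markers at 115.4, 78.9 and 27.5 FPKM in control libraries 1 to 3. The summed markers of large peritoneal macrophages, mostly *Prg4*, were at 137.6, 86.7 and 33.1 FPKM in the controls and between 3.38 and 6.10 FPKM in the knockout libraries. The part of either cell type in these decreases was not tested.

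**Figure D3:**
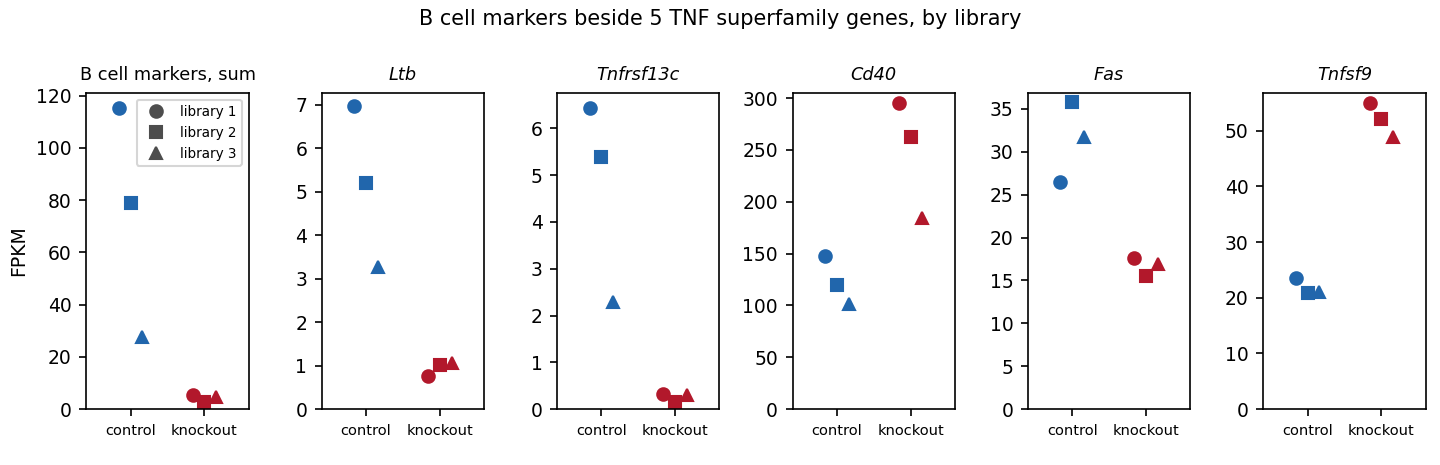
FPKM of the 5 listed B cell markers (summed) and of 5 TNF superfamily genes in the control and knockout libraries, with the library number as the shape of the point and each axis starting at 0. The marker sum, *Ltb* and *Tnfrsf13c* are highest in control library 1, lower in control library 3 and lowest in the knockout libraries, whereas *Cd40* and *Tnfsf9* are higher in the knockout libraries.

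*Tnfrsf4*, the gene of the T cell costimulatory receptor OX40 (Entrez 22163), was at 0.464, 0.406 and 0.515 FPKM in the knockouts, compared with 1.86, 1.66 and 1.04 FPKM in the controls (log2 fold change -0.77, limma adjusted p = 0.0326). Its call was lost after rescaling (limma adjusted p = 0.0520) and with voom (0.0692), and its log2 fold change was -1.49 with a pseudocount of 0.1 and -1.51 with voom. The 6 T cell markers summed to between 0.849 and 1.53 FPKM in the knockout libraries and between 0.996 and 3.25 FPKM in the controls. *Tnfrsf14*, the gene of HVEM, which binds LIGHT and BTLA (Entrez 230979), was at 29.5, 27.5 and 29.0 FPKM against 17.1, 21.9 and 17.4 FPKM and rose (log2 fold change 0.59, limma adjusted p = 0.0471). With the replicate number as a block, a fit in which 9.47% of all genes passed, its adjusted p was 0.0630, and it was 0.0605 without a filter.

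*Tnfsf12*, the gene of TWEAK (Entrez 21944), was at 19.9, 25.8 and 17.9 FPKM in the knockouts, compared with 6.82, 6.29 and 14.4 FPKM in the controls. All knockout libraries were above all controls, yet the adjusted p was 0.0559 (log2 fold change 1.2, from limma), and it was 0.0398 after rescaling, 0.0406 with voom and 0.00320 without control library 3. *Tnfsf15*, the gene of TL1A (Entrez 326623), was the most abundant of the other ligands, at 112, 113 and 46.3 against 51.0, 46.6 and 28.4 FPKM. Its groups overlapped through knockout library 3 (log2 fold change 1.02, limma adjusted p = 0.139), while blocking on the replicate number brought its adjusted p to 0.0243 and leaving out knockout library 3 to 0.0352. *Ltbr*, the gene of the lymphotoxin β receptor, and *Tnfrsf21*, the gene of death receptor 6, had log2 fold changes of -0.17 and -0.13 that did not pass (limma adjusted p = 0.559 and 0.534). After rescaling they were at -0.03 and -0.01, and *Ltbr* was at 0.0041 without control library 3.

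Behind the receptors, 31 genes of TNF receptor signalling were all listed and tested, of which 1 rose, 2 fell and 28 did not pass. Their median log2 fold change was -0.02 and turned to 0.12 after rescaling. This is 3 of 31 genes, beside the 7.31% of all tested genes. Of the 11 adaptors and ubiquitin ligases, 1 fell. It was *Traf5*, an adaptor of CD40 and other TRAF-binding receptors (Entrez 22033), at 12.4, 10.1 and 15.2 FPKM in the knockouts, compared with 31.5, 25.6 and 25.1 FPKM in the controls (log2 fold change -1.08, limma adjusted p = 0.0196). On the same strand *Gstp-ps* overlaps *Traf5* by 631 bases and *Mir3473c* by 81 bases, and *Gm26879* overlaps it by 205 bases on the opposite strand. *Rnf31*, of the linear ubiquitin ligase complex and named after its values were seen, was at 40.0, 38.0 and 29.0 against 26.1, 20.1 and 19.9 FPKM and did not pass (limma adjusted p = 0.0621), while its adjusted p was 0.0423 with the block and 0.0449 without control library 1.

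Of the 12 kinases and kinase subunits, 1 rose and 1 fell, and their median log2 fold change was -0.30, and -0.17 after rescaling. Over all tested genes 2.57% rose and 4.74% fell, with medians of -0.11 and 0.01. *Map3k8*, the gene of the kinase TPL2, which couples TNF and LPS receptors to ERK (Entrez 26410), rose from 15.3, 18.1 and 16.2 FPKM in the controls to 35.4, 34.6 and 24.8 FPKM in the knockout libraries (log2 fold change 0.88, limma adjusted p = 0.0284). *Ikbkg*, the gene of the regulatory subunit NEMO of the IκB kinase (Entrez 16151), fell from 16.9, 23.4 and 23.5 FPKM to 9.06, 5.46 and 9.30 FPKM (log2 fold change -1.34, limma adjusted p = 0.0204). The span of *Ikbkg*, introns included, overlaps that of *G6pdx* on the opposite strand over 19712 bases in GENCODE vM21. How far their exons overlap was not measured. The strand setting is not stated, so whether reads of *G6pdx* were counted for *Ikbkg* is not known.

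Of the 4 genes of the death branch and the 4 deubiquitinase genes, 0 passed in limma, where 1 (*Cflar*) had an unadjusted p under 0.05, and 0 passed with voom. Over all tested genes 27.6% had an unadjusted p under 0.05 and 7.31% passed. *Cflar*, which encodes the caspase-8 inhibitor cFLIP, was at 142, 139.5 and 136 FPKM in the knockouts, compared with 98.6, 112 and 104 FPKM in the controls, without overlap (log2 fold change 0.40, limma adjusted p = 0.0792). *Tnfaip3*, the gene of A20, was the most abundant of the 31 genes, at 461, 357 and 297 against 354, 298 and 267 FPKM (log2 fold change 0.26, limma adjusted p = 0.413). The log2 fold change of *Tnfaip3* was 0.10 without knockout library 1 and 0.41 without knockout library 3. *Tnip1*, the gene of an A20-binding partner, differed by 0.05 on the log2 scale (limma adjusted p = 0.882), with values between -0.04 and 0.19 over the alternatives.

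**Figure D4:**
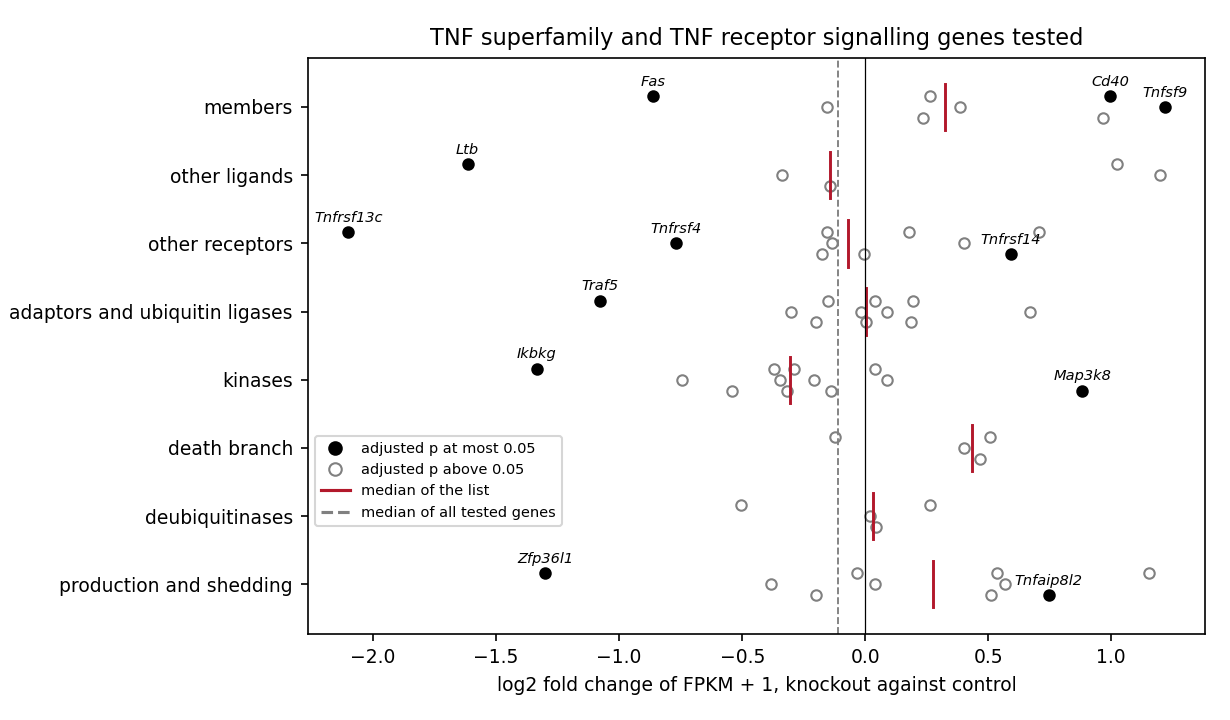
Log2 fold change of FPKM + 1 (knockout against control) of the tested genes of each list, filled and named where the adjusted p is at most 0.05, with the list median in red and the median of all tested genes dashed at -0.11. In each list most genes lie short of the threshold, and the 3 genes of the top row that pass are *Fas*, *Cd40* and *Tnfsf9*.

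Genes that set how much TNF a macrophage makes and sheds formed a list of 11, of which 10 were tested, 1 rose and 1 fell, beside 7.31% of all tested genes in either direction. Their median log2 fold change was 0.27, and 0.41 after rescaling. *Tnfaip8l2*, the gene of TIPE2 (Entrez 69769), rose from 2.99, 2.40 and 3.45 FPKM in the controls to 4.69, 6.36 and 5.79 FPKM in the knockout libraries (log2 fold change 0.75, limma adjusted p = 0.0375), and its call was lost without a filter (0.0715) and with a filter of 5 FPKM (0.0521). *Zfp36l1*, which encodes a protein that binds AU-rich elements of mRNA (Entrez 12192), fell from 11.5, 9.82 and 5.73 FPKM to 3.25, 3.46 and 2.2 FPKM (log2 fold change -1.30, limma adjusted p = 0.0297), and its call was lost after rescaling (adjusted p = 0.0588), with voom (0.0679) and without a filter (0.0605). The non-coding gene *Gm26669* overlaps it by 4967 bases on the opposite strand. *Zfp36*, the gene of tristetraprolin, which destabilizes the mRNA of *Tnf*, was at 337, 331 and 169.8 FPKM in the knockouts, compared with 172, 114 and 86.3 FPKM in the controls. Knockout library 3 lay within the range of the controls, and the log2 fold change of 1.15 did not pass (limma adjusted p = 0.0820). It passed with the block (0.0208), without knockout library 3 (0.0413) and without control library 1 (0.0474). *Adam17*, the gene of the protease that sheds TNF and its receptors, was at 98.4, 93.7 and 99.9 against 71.0, 96.9 and 124 FPKM, with a log2 fold change of 0.04 (limma adjusted p = 0.92) that was -0.17 without control library 1 and 0.23 without control library 3. *Litaf* was at 293, 284 and 286 FPKM in the knockouts, compared with 149, 189 and 289.5 FPKM in the controls, where control library 3 stood at the level of the knockouts (log2 fold change 0.51, limma adjusted p = 0.205). Its groups did not overlap after rescaling (log2 fold change 0.66, limma adjusted p = 0.0927), and it passed without control library 3 (log2 fold change 0.77, limma adjusted p = 0.0167). Without control library 1 the log2 fold change fell to 0.30 (limma adjusted p = 0.330).

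Each of the 9 genes named above as risen or fallen in the other lists (*Ltb*, *Tnfrsf13c*, *Tnfrsf4*, *Tnfrsf14*, *Traf5*, *Map3k8*, *Ikbkg*, *Tnfaip8l2* and *Zfp36l1*) missed the threshold in the fits that lacked control library 2, knockout library 1 or knockout library 2, with adjusted p from limma between 0.0612 and 0.183. In these fits 8, 30 and 63 genes passed among all those tested, and the direction of the 9 genes was kept. Over all alternatives the log2 fold change of *Ltb* lay between -2.27 and -1.41 and that of *Tnfrsf13c* between -3.95 and -1.87. Without knockout library 3 the call was also lost for *Tnfrsf14* (0.0994), *Tnfrsf4* (0.0654), *Tnfaip8l2* (0.0857) and *Zfp36l1* (0.0685). Without control library 1 it was also lost for *Tnfrsf14* (0.0731), *Tnfrsf4* (0.0505) and *Tnfaip8l2* (0.0534).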

How the data were processed

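Total RNA of 6 libraries was sequenced. The authors deposited FPKM per gene and library in one table (build mm9, per the submitters' processing notes), together with normalized group means from DESeq2, a signal that was used here only to recover reads. Per the file headers the table also holds fold changes, p-values and q-values of the authors' own comparison, which were not used. Reads were recovered from the steps between low values, and 100% of the values came out whole within 0.01 reads. They gave 36170767 to 42217558 reads per library, which limits the precision for genes with few reads.

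Libraries were grouped by title. log2(FPKM + 1) was fitted with limma 3.58.1 in R 4.3.3 (moderated statistics with a mean trend) over 9030 genes whose mean reached 1 FPKM in either group, and Benjamini-Hochberg adjustment covered all of them. The fitting scripts were tested on simulated data. The alternatives were no filter, a filter of 5 FPKM, a pseudocount of 0.1, rescaling by the median of ratios, voom on recovered reads, the replicate number as a block, and leaving out each library. Deviations from the group means of libraries with the same number correlated at 0.11, 0.11 and 0.30, and those of other pairs at -0.33 to 0.29. This check alone is the source of the pairing. It does not establish a pairing, since knockout library 2 and control library 1 also correlated at 0.29. The genes and lists were chosen with earlier results of these data known. Named from each list were the genes past the threshold and the 3 with the highest mean FPKM. Promoters came from RefSeq (GRCm38.p6).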

Additional observations from a re-analysis of the deposited data

How the results depend on the processing

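With a filter of 5 FPKM, 436 of 5779 genes passed, beside 660 of 9030, and 2 of 6 of the other ligands and receptors, beside 4 of 15, where *Tnfrsf4* and *Tnfrsf13c* were removed by the filter. Leaving out 1 library at a time gave 8 to 1333 genes, 0 to 4 of the 8 tested superfamily genes, 0 to 6 of the other ligands and receptors and 0 to 4 of the signalling genes. Where these limma counts were 0, an unadjusted p under 0.05 was reached by 3 of the 8 superfamily genes, by 5 or 6 of the 15 other ligands and receptors and by 6 or 7 of the 31 signalling genes, beside 15.9% to 19.7% of all genes in those fits. The fewest genes, 8, passed without control library 2, 30 passed without knockout library 1 and 63 without knockout library 2, while 1333 passed without control library 3. The log2 fold change of *Tnfrsf11a* ranged from -0.50 (without control library 3) to 0.0503 (without control library 1), and the difference in the log2 ratio of *Tnfrsf1b* to *Tnfrsf1a* from -0.21 to 0.20. The cause was not tested. Blocking on the replicate number gave 855 genes, and 3 of the 8 superfamily genes, *Tnfsf9*, *Cd40* and *Fas*. Higher genes made up 35.2% of the calls (232 higher, 428 lower) and 51.3% after rescaling (343 higher, 326 lower). The number of libraries, 3 in each group, limits the precision.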

Other observations

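The genes whose pattern over the 6 libraries was most like that of *Cd40*, by the root mean square difference of centred log2(FPKM + 1), were *Hk2* (0.0678), *Crybg1* (0.0967), *Cd274* (0.0991), *Prr5l* (0.101) and *Casp4* (0.103), beside 0.560 for the spread of *Cd40* itself. *Cd274*, the gene of PD-L1, was at 631, 614 and 468 FPKM in the knockouts, compared with 319, 257 and 209 FPKM in the controls. *Casp4*, the gene of the inflammatory caspase-11, was at 139, 134 and 95.2 FPKM against 78.0, 68.0 and 58.6 FPKM. Being chosen for their likeness to *Cd40*, these genes are no separate evidence of its change.

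The genes most like *Tnf* were *Sh3pxd2b* (0.0626), *Csf2rb* (0.0653), *Gatad2a* (0.0701), *Hivep1* (0.0734) and *Prpsap1* (0.0751), beside 0.270 for *Tnf* itself. *Csf2rb*, the gene of the common β chain of the GM-CSF receptor, was at 167, 143 and 137 FPKM in the knockouts, compared with 107, 104 and 138 FPKM in the controls, where control library 3 was again above the others of its group.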
